A study of Mus musculus with 8 samples.

Results

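The comparison described here set 2 *Hdac3*-/- clones of one female mouse embryonic stem cell (ESC) line against each other. The samples were chosen by genotype label and replicate number. The 4 *Hdac3*-/- samples, of 8 samples in all, were taken, with 2 samples from the clone numbered Rep1 and 2 from the clone numbered Rep2. Each clone was sampled before and after 24 hr of doxycycline (DOX), and time was a covariate of the test. The parental line is TX1072, which carries 1 genome from the C57BL/6 strain (B6) and 1 from *Mus musculus castaneus* (Cast) and in which DOX induces *Xist* from the B6 X chromosome. Both clones are CRISPR/Cas9 deletions of *Hdac3* made in this line, and the 4 *Hdac3*+/+ samples are duplicates of the parental line at 0 hr and 24 hr. All cells were grown in 2i/LIF medium, and the labels do not say which of the study's clone names belongs to which replicate number. Each genotype therefore rests on 1 parental line or on 2 single clones.

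HDAC3 is a histone deacetylase. It is the catalytic subunit of the NCOR and SMRT corepressor complexes, which hold genes at low expression. A clone grows from a single edited cell, so 2 clones of one genotype each have their own history of growth. The clones do not share an identical edit either, as the study's methods list different deleted exons for them. The part of this difference in the results was not tested. In a hybrid line, reads that cover a strain difference name the chromosome copy they came from, so the output of the B6 copy and of the Cast copy can be followed apart. RNA reads measure the output of each copy, and DNA copy number was not measured in these samples.

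Depth ran from 6940375 to 17125156 reads counted on genes per sample, with 17125156 (0 hr) and 11377314 (24 hr) in the Rep1 clone and 12056306 (0 hr) and 10147978 (24 hr) in the Rep2 clone. An allele could be named for 30.05% to 31.59% of them. *Hdac3* (chromosome 18, 37935844 to 37955016 on mm10) had 507 and 512 reads at 0 hr and 416 and 301 reads at 24 hr in *Hdac3*+/+. It had 98 reads at 0 hr and 63 at 24 hr in the Rep1 clone, and 87 and 70 in the Rep2 clone. The residual level was therefore low in both clones, at 5.81 and 5.53 CPM (counts scaled to a common library size) in Rep1 and 7.39 and 7.0 CPM in Rep2 against 38.5 to 43.2 CPM in *Hdac3*+/+. The difference between the clones did not pass edgeR's quasi-likelihood test (log2 fold change, Rep1 over Rep2, −0.34 ± 0.16 SE, adjusted p = 0.159). *Nanog*, a pluripotency factor, stood at 1634 and 1548 CPM in Rep1 and at 1399 and 1367 CPM in Rep2, above the 959.4 to 1047 CPM of *Hdac3*+/+. Of 11 fibroblast markers, 2 passed the filter on low expression. Among those that did not pass, *Col3a1*, *Postn*, *Lum* and *Dcn* had at most 3 reads in any sample, and the highest count of any member was 48 reads. The summed level of the list was 44.7 to 64.8 CPM in *Hdac3*+/+, 42.2 and 39.3 CPM in Rep1 and 30.3 and 30.3 CPM in Rep2, and its part in the results was not tested. *Thy1*, a surface glycoprotein and the 1 member that passed the test, was higher in Rep1 by 0.63, a call lost without any 1 clone sample (adjusted p up to 0.312).

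The 2 clones differed in 2343 of 13350 genes tested (17.6%, edgeR, adjusted p under 0.05). Of these, 1470 were higher in the Rep1 clone (11% of genes tested) and 873 in the Rep2 clone (6.54%). An absolute log2 fold change above 1 was also met by 486 of them (3.64%), of which 401 were higher in Rep1 (3%) and 85 in Rep2 (0.637%). A second fit gave each numbered duplicate of *Hdac3*+/+ its own term. In it the 2 duplicates differed in 887 genes (6.64%), and 64 of those passed the fold criterion (0.479%). The clones differed in 4338 of the 13350 genes in that second fit, so 4338 and not 2343 is the count to set beside 887. The test of the clone difference minus the *Hdac3*+/+ replicate difference, also from the second fit, called 1604 genes (12%). Across 10302 genes with a mean above 50 reads, the SD of the log2 difference between Rep1 and Rep2 was 0.339 at 0 hr and 0.374 at 24 hr in the clones, against 0.236 and 0.235 in *Hdac3*+/+. Because each clone has 1 sample per time, 2 of the 3 residual degrees of freedom of the first fit come from the *Hdac3*+/+ duplicates. With 1 clone sample left out the contrast rests on 1 time point, and the count fell to 359 without Rep1 at 24 hr, 436 without Rep1 at 0 hr, 375 without Rep2 at 24 hr and 442 without Rep2 at 0 hr.

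Chromosome 16 stood apart from every other chromosome. Of its 425 genes tested, 255 differed between the clones (60%, against 17.6% over all genes), 250 of them higher in Rep1 and 5 higher in Rep2. The other chromosomes ran from 12.7% to 21.2%. The median log2 fold change over all 425 genes was 0.45, which is 1.37-fold, and the middle 50% of genes lay between 0.27 and 0.75. Medians of the other chromosomes lay between −0.05 and 0.04, and the median over all genes was 0.00. A higher value in Rep1 was found in 384 of the 425 genes whatever their p (90.4%), against 49.1% of genes off the chromosome. The excess was present across expression levels. In 3 groups of 142, 141 and 142 genes ordered from low to high CPM, 45, 88 and 117 genes were higher in Rep1, with group medians of 0.74, 0.46 and 0.38. Genes off the chromosome were not grouped by level, so these medians have no matched background. Off it, the called genes with an absolute log2 fold change above 1 also leaned to Rep1. Of these, 357 were higher in Rep1 and 85 in Rep2, at median levels of 4.09 and 4.25 CPM. Of the 170 chromosome 16 genes that did not pass, 134 were on the Rep1 side, and their median level was 7.99 CPM against 51.2 CPM for those that did. Without 1 clone sample the count was 86 without Rep1 at 24 hr, 96 without Rep1 at 0 hr, 92 without Rep2 at 24 hr and 97 without Rep2 at 0 hr, while the median stayed between 0.43 and 0.46.

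**Figure D1:**
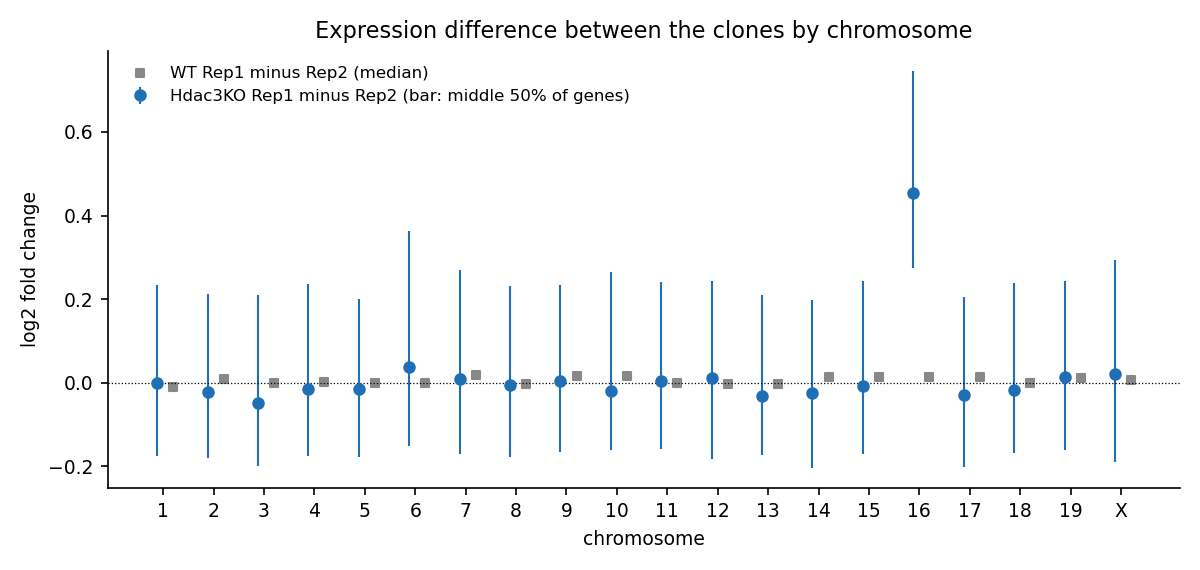
Median log2 fold change between the *Hdac3*-/- clones (Rep1 over Rep2, y axis) for each chromosome (x axis), with bars for the middle 50% of genes and grey squares for the same median between the *Hdac3*+/+ replicates. Chromosome 16 has a median of 0.45, and the other chromosomes lie between −0.05 and 0.04.

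Set against the parental line, which both clones share as their control, the clone that departed on this chromosome was Rep2. The median log2 fold change of its 425 genes was −0.50 in Rep2 over *Hdac3*+/+ and −0.03 in Rep1 over *Hdac3*+/+. In Rep2, 27 of the 425 genes were higher and 292 lower than in *Hdac3*+/+ (over all genes, 18.4% were higher and 21.7% lower). In Rep1, 75 were higher and 105 lower (19.6% and 20.8% over all genes). With the rRNA precursor *Rn45s* left out, the share of reads that fell on chromosome 16 was 4.06% to 4.09% in *Hdac3*+/+, 3.86% and 3.90% in Rep1 and 2.94% in both samples of Rep2. Among the 250 genes higher in Rep1, 128 differed from *Hdac3*+/+ in Rep2 alone and 24 in Rep1 alone, while 64 differed in both clones in the same direction, 26 in opposite directions and 8 in neither.

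The alleles of chromosome 16 moved unequally. The d-score, the B6 share of a gene's allelic reads, had a median over 314 genes of 0.331 to 0.341 in the 4 *Hdac3*+/+ samples and 0.333 in both Rep1 samples. In Rep2 it was 0.50 at 0 hr and 0.49 at 24 hr, close to the 0.505 to 0.508 of 8969 genes on the other autosomes. The parental line and the Rep1 clone thus gave more Cast than B6 reads from this chromosome, and the Rep2 clone gave similar amounts of both. For 279 genes with at least 20 allelic reads in every sample, Cast CPM was lower in Rep2 than in *Hdac3*+/+ by a median log2 difference of −0.89, and B6 CPM differed by 0.01. In Rep1 the medians against *Hdac3*+/+ were −0.07 for Cast and −0.11 for B6. Between the clones the median was 0.83 for Cast and −0.16 for B6, and Cast was higher in Rep1 for 276 of the 279 genes.

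**Figure D2:**
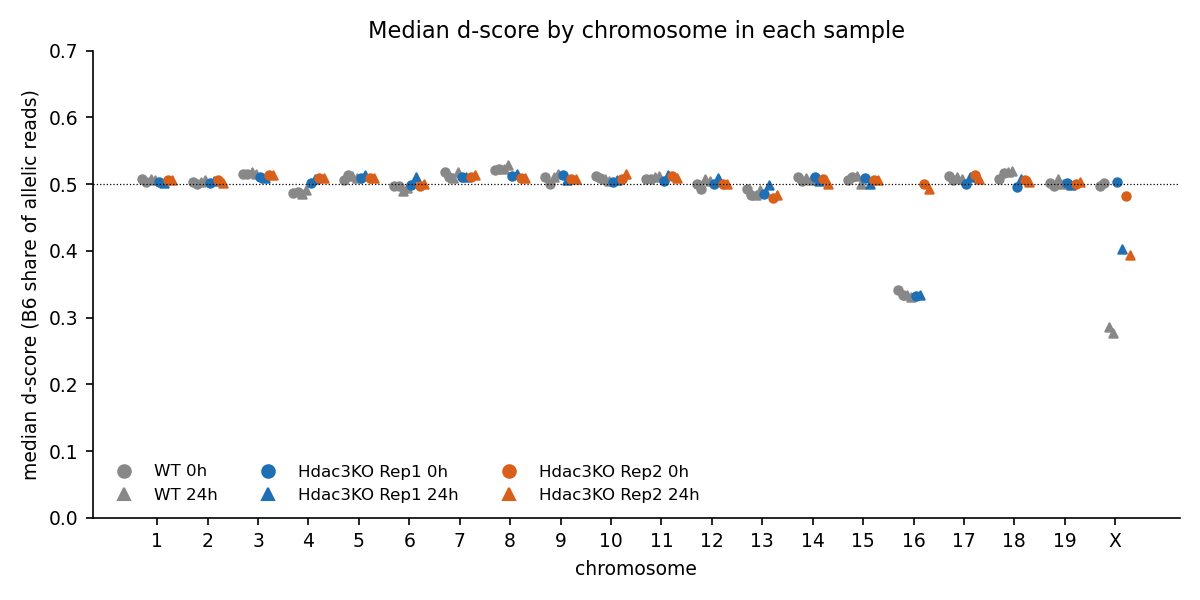
Median d-score (B6 share of allelic reads, y axis) of each chromosome (x axis) in the 8 samples, with *Hdac3*+/+ in grey, the Rep1 clone in blue and the Rep2 clone in orange, circles for 0 hr and triangles for 24 hr. Chromosome 16 lies near 0.33 in *Hdac3*+/+ and Rep1 and near 0.50 in Rep2.

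The shift covered the whole chromosome. In 10 groups of neighbouring genes ordered along it, the median log2 B6:Cast ratio of Rep1 minus Rep2 lay between −1.07 and −0.86, and the Cast level of Rep2 against *Hdac3*+/+ between −1.11 and −0.79. The allelic skew of this chromosome in Rep1 was known when the comparison was set, so the allelic test of its genes is a description. The edgeR test of the B6:Cast ratio called 182 of 319 genes on chromosome 16 (57.1%). The share was 2.84% of the 10227 genes tested and 1.09% of those off the chromosome. In all 182 the B6 share was lower in Rep1 (2.27% of genes tested). Of these, 143 also differed in total expression. The total level in Rep2 was lowest for the genes with the highest Cast share in the parental line. In 3 groups of 93 genes ordered by the *Hdac3*+/+ d-score from low to high, the median total level in Rep2 against *Hdac3*+/+ was −0.61, −0.51 and −0.39.

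**Figure D3:**
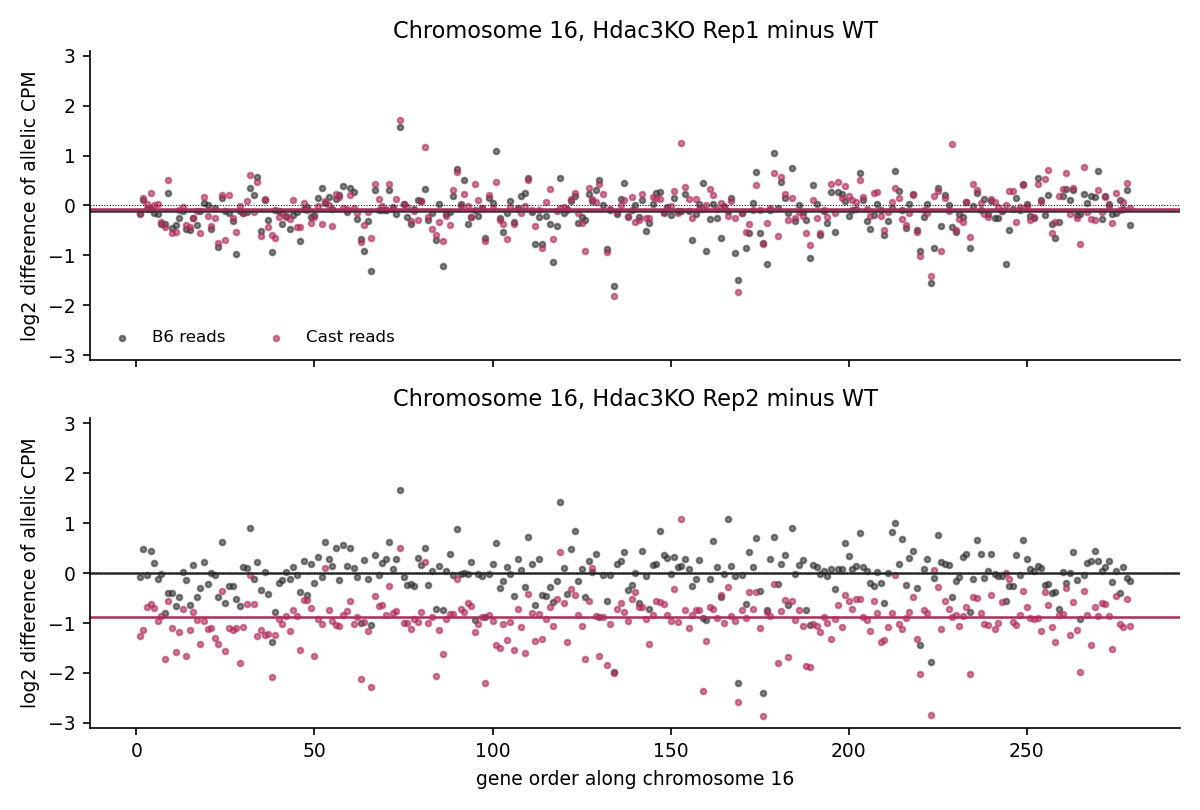
Log2 difference from *Hdac3*+/+ in B6 CPM (dark) and Cast CPM (magenta) for 279 chromosome 16 genes in their order along the chromosome (x axis), in the Rep1 clone (top) and the Rep2 clone (bottom), with lines at the medians. In Rep2 the Cast median lies at −0.89 and the B6 median at 0.01, and in Rep1 both lie near 0.

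Single genes of chromosome 16 show the same split. *Etv5*, a transcription factor of the FGF pathway, had d-scores of 0.228 and 0.216 in Rep1 and 0.417 and 0.421 in Rep2. Its total level was 953.4 and 1016 CPM in Rep1 against 783.0 and 832.9 CPM in Rep2, a log2 fold change of 0.29 ± 0.06 SE (edgeR, adjusted p = 0.00381). *Eif4g1*, the scaffold of the translation initiation complex, had d-scores of 0.299 and 0.297 in Rep1 and 0.465 in both samples of Rep2, with a log2 fold change of 0.28. Of the 10 chromosome 16 genes with the highest mean level, 8 were higher in Rep1. The remaining 6 of those were *Usp7*, a deubiquitinase, at 0.38, *Ranbp1*, a regulator of the Ran cycle, at 0.34, *Mcm4*, a subunit of the replicative helicase, at 0.38, *Rpl24*, a ribosomal protein, at 0.44, *Son*, a splicing cofactor, at 0.21 and *Cct8*, a chaperonin subunit, at 0.36. *Tfrc*, the transferrin receptor, and *Crebbp*, a histone acetyltransferase, did not pass, with log2 fold changes of −0.02 (adjusted p = 0.870) and 0.12 (adjusted p = 0.256). The *Tfrc* B6:Cast ratio did pass (log2 difference −1.01 ± 0.08 SE), with d-scores of 0.352 and 0.360 in Rep1 against 0.516 and 0.538 in Rep2. Among the 8, the *Rpl24* call held without any 1 clone sample. The calls of *Eif4g1*, *Etv5*, *Mcm4*, *Son* and *Cct8* were lost without any 1 of the 4, with adjusted p up to 0.212, 0.152, 0.0769, 0.331 and 0.0926. That of *Ranbp1* was lost without either 0 hr sample (up to 0.135) and that of *Usp7* without Rep1 at 24 hr (0.0501).

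*Dppa4*, a chromatin protein of pluripotent cells and a member of the naive pluripotency list, lay at 117.1 and 107.0 CPM in Rep1 and at 71.1 and 66.7 CPM in Rep2, with 82.0 to 102.5 CPM in *Hdac3*+/+. The 2 clones thus lay on opposite sides of the parental line, and *Dppa4* was higher in Rep1 by 0.70 ± 0.07 SE on the log2 scale (edgeR, adjusted p = 3.18e-05). Its neighbour and partner *Dppa2* was higher in Rep1 by 0.32, a call lost without either 0 hr sample, where it was 0.19 (adjusted p up to 0.374). *Mx1*, an interferon-induced GTPase, had a larger difference than most of the chromosome, with 8.13 and 8.86 CPM in Rep1, 3.06 and 1.70 CPM in Rep2 and 0.34 to 1.81 CPM in *Hdac3*+/+. Its log2 fold change was 1.82 ± 0.35 SE, and its call was lost without either 24 hr sample (adjusted p up to 0.181). Of the 5 genes higher in Rep2, *Casr*, the calcium-sensing receptor, kept its call without any 1 sample. It had 18.3 and 16.3 CPM in Rep1, 31.9 and 28.7 CPM in Rep2 and 27.9 to 34.3 CPM in *Hdac3*+/+ (log2 fold change −0.81 ± 0.12 SE). *Olig2*, a neural transcription factor, *Sema5b*, a semaphorin, and *Ildr1*, a tricellular junction protein, were higher in Rep2 with log2 fold changes of −0.62, −0.61 and −0.34, and the fifth is the predicted gene *Gm4737*. The calls of *Olig2*, *Sema5b* and *Ildr1* were lost without any 1 of the 4 clone samples (adjusted p up to 0.266, 0.326 and 0.173).

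Off chromosome 16, a scan of the allelic ratio along 8317 genes found 3 further segments in which the clones differed. Their members were chosen by that ratio, so the values here are a description. In all 3 the allelic ratio departed from that of the parental line in Rep1 and stayed near it in Rep2. On mm10 they covered chromosome 1 from 33908225 to 34879580 (*Dst* to *Plekhb2*), chromosome 6 from 81923669 to 83459084 (*Gcfc2* to *Tet3*) and chromosome 10 from 125966168 to 127747349 (*Lrig3* to *Zbtb39*). On chromosome 6 the median d-score was 0.686 and 0.677 in Rep1 against 0.526 and 0.515 in Rep2, and B6 reads were higher in Rep1 than in *Hdac3*+/+ by a median log2 difference of 0.98 while Cast reads differed by −0.05. On chromosome 10 the Cast side carried the difference, with d-scores of 0.331 and 0.357 in Rep1 against 0.512 and 0.511 in Rep2, Cast reads at 0.84 over *Hdac3*+/+ and B6 reads at −0.09. On chromosome 1 the d-scores were 0.384 and 0.391 in Rep1 against 0.544 and 0.553 in Rep2, with Cast reads at 0.66 over *Hdac3*+/+. The 15 genes on either side of each segment had median ratios within −0.07 to 0.04 of *Hdac3*+/+ in Rep1, so the ratio changed over a few genes at each edge.

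**Figure D4:**
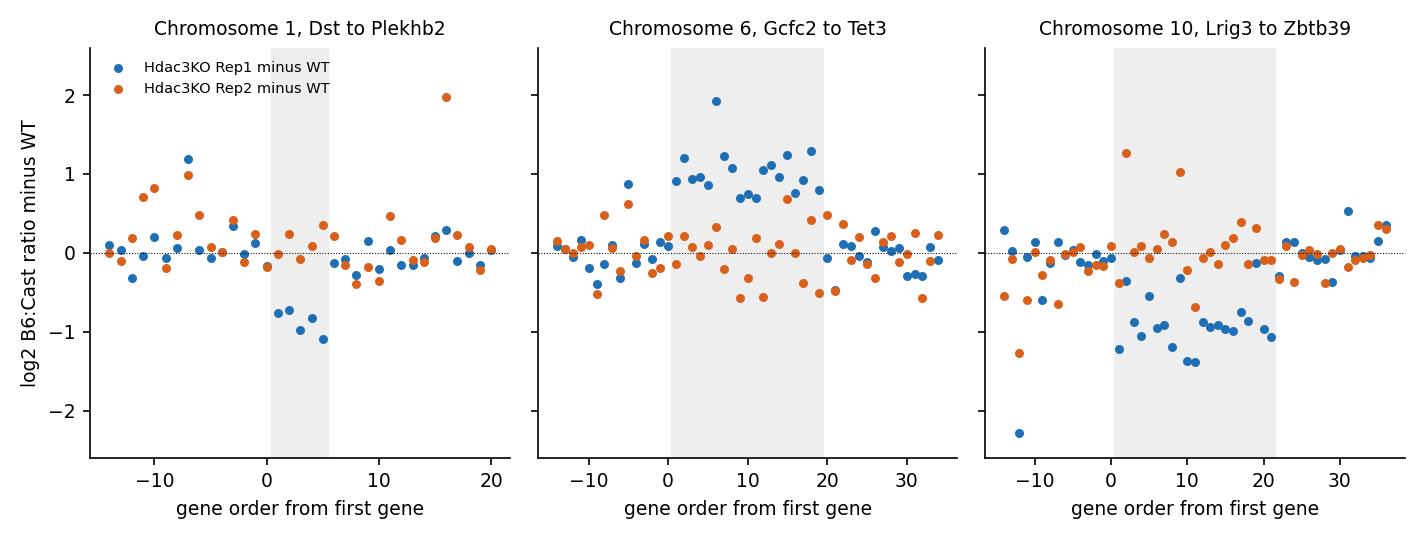
Log2 B6:Cast ratio minus that of *Hdac3*+/+ (y axis) for genes in order along 3 segments (x axis, shaded) and 15 genes on either side, in the Rep1 clone (blue) and the Rep2 clone (orange). Rep1 has segment medians of −0.82 on chromosome 1, 0.96 on chromosome 6 and −0.95 on chromosome 10, while Rep2 stays near 0 inside and outside.

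Total expression in the segments was higher in Rep1. The scan ran on the allelic reads, which are part of the total reads, so the counts of total expression are a description too. Of 7, 30 and 34 genes tested, 6, 21 and 21 were higher in Rep1 and 0 in Rep2 (11% of all genes tested were higher in Rep1), with median log2 fold changes of 0.43, 0.56 and 0.44. The members named from here to the end of the paragraph were chosen after their values were seen, except those of the gene lists. *Tet3*, which oxidises methylated cytosine in DNA, had 109.7 and 103.6 CPM in Rep1, 56.37 and 49.98 CPM in Rep2 and 43.4 to 73.8 CPM in *Hdac3*+/+. Rep1 lay above all other samples, and the log2 fold change between the clones was 1.00 ± 0.10 SE (edgeR, adjusted p = 3.04e-05). *Mthfd2* of mitochondrial folate metabolism, in the same segment, had 217.5 and 244.3 CPM in Rep1 and 144.1 and 155.7 CPM in Rep2, and 81.0 to 95.2 CPM in *Hdac3*+/+. It was thus highest in Rep1, by 0.62 over Rep2. *Hk2*, a hexokinase, was higher by 0.37, a call lost without either 24 hr sample (adjusted p up to 0.0971). On chromosome 10, *Cdk4* of the G1 phase was higher by 0.33, the folate enzyme *Shmt2* by 0.37, the lipoprotein receptor gene *Lrp1* by 0.77, the signal transducer *Stat6* by 1.18 and *Ddit3*, a stress-response transcription factor, by 0.98. The *Ddit3* call was lost without either 24 hr sample (adjusted p up to 0.190), and those of *Cdk4* and *Shmt2* without any 1 clone sample (up to 0.104 and 0.0840). The calls of *Tet3*, *Mthfd2*, *Lrp1* and *Stat6* held without any 1 sample. ATF4 targets, genes of the amino acid stress response, had 5 of 17 members higher in Rep1 and 0 higher in Rep2, with a median of 0.14. Of the 5, *Ddit3*, *Mthfd2* and *Shmt2* lie in the segments, and *Nupr1* and *Phgdh* lie elsewhere at 0.60 and 0.37, with calls lost without any 1 clone sample (adjusted p up to 0.326 and 0.251). The count of the list without 1 clone sample was 1 to 2.

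The B6:Cast ratio differed in 2.84% of all genes tested, a share that includes the calls on chromosome 16 and in the segments. Beyond chromosome 16 and the segments, 75 of 9852 genes tested differed in this ratio. The B6 share was higher in Rep1 in 44 of them and lower in 31. The following 3 were chosen after their values were seen. *Ttc4*, a co-chaperone gene on chromosome 4 (106662256 to 106678944), had 310 B6 and 0 Cast reads at 0 hr and 154 and 0 at 24 hr in Rep1, which allows a Cast share of up to 0.968% and 1.95%. In Rep2 it had 202 B6 and 133 Cast reads at 0 hr and 179 and 101 at 24 hr, and the *Hdac3*+/+ samples had 88 to 166 Cast reads. No Cast read was thus counted in Rep1, and the total level was lower there too, at 22.60 and 17.98 CPM against 40.6 and 38.5 CPM in Rep2 and 38.3 to 43.1 CPM in *Hdac3*+/+ (log2 fold change −0.96 ± 0.11 SE, edgeR, adjusted p = 4.57e-05). Its neighbour *Pars2* (106651069 to 106655282), a mitochondrial prolyl-tRNA synthetase, had 80 and 52 B6 reads and 0 Cast reads in Rep1, which allows up to 3.75% and 5.77% Cast, against 45 and 33 Cast reads in Rep2. Its total level was lower in Rep1 by a log2 fold change of −0.66 ± 0.19 SE (adjusted p = 0.0307), a call lost without any 1 clone sample (up to 0.565), and the value was −0.36 without either 0 hr sample. *Dnm2*, a dynamin of endocytosis on chromosome 9, had d-scores of 0.768 and 0.769 in Rep1 against 0.572 and 0.571 in Rep2 and 0.561 to 0.612 in *Hdac3*+/+. Its total was lower in Rep1, at 122.2 and 125.0 CPM against 177.7 and 171.3 CPM in Rep2 (log2 fold change −0.50, adjusted p = 0.000248). The expression calls of *Ttc4* and *Dnm2* held without any 1 sample. Intervals from a count of 0 cover counting error only.

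Off chromosome 16, 2088 genes differed between the clones, 1220 higher in Rep1 and 868 higher in Rep2, and the segments held 48 of the 1220. Those higher in Rep1 had a lower median level than those higher in Rep2, 18.1 against 64.0 CPM. Neither clone accounted for most of the departures from the parental line. Of the 1220, 380 differed from *Hdac3*+/+ in Rep1 alone, 366 in Rep2 alone, 352 in both clones in the same direction, 46 in opposite directions and 76 in neither. Without 1 clone sample the count of 2088 was 273 without Rep1 at 24 hr, 340 without Rep1 at 0 hr, 283 without Rep2 at 24 hr and 345 without Rep2 at 0 hr.

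Among the largest differences off chromosome 16 were those in genes of the two-cell-like state, a rare transient state of ESCs that resembles the early embryo and is marked by the *Zscan4* cluster. These genes were read in Rep1 and in the parental line and were at or near 0 reads in Rep2. *Zscan4b*, a member of this cluster, had 151 and 87 reads in Rep1, 5 and 5 in Rep2 and 64 to 162 in *Hdac3*+/+. In CPM, Rep1 at 8.96 and 7.63 lay just below the 9.19 to 12.3 of *Hdac3*+/+, and Rep2 at 0.42 and 0.50 far below both. The log2 fold change between the clones was 4.15 ± 0.32 SE (edgeR, adjusted p = 3.02e-06). *Zscan4c* had 33 and 13 reads in Rep1 against 0 and 2 in Rep2, a depth-scaled ratio of 17.7 with an exact 95% counting interval of 4.64 to 150.7. *Usp17le*, a deubiquitinase gene of the same programme, had 23 and 11 reads against 0 and 1 (ratio 26.2, interval 4.40 to 1065) and *Usp17lc* 19 and 8 against 1 and 0 (ratio 20.8, interval 3.43 to 852.0). Of 19 genes on this list, 16 were in the tables and 7 passed the filter. Of the 7, 6 were higher in Rep1 and 0 in Rep2, where 11% of all genes tested were higher in Rep1. The filter needed expression in 2 clone samples, so a member read in Rep1 alone could pass. The 6 of the 7 are therefore a description with no weight of their own. Without the filter, 8 of the 16 members were called, all higher in Rep1, where 1833 of 20507 genes were higher in Rep1. This count is a description too, as the members that the filter left out had few reads in Rep2. *Usp17la*, with 25 reads in Rep1 and 8 in Rep2, did not pass (adjusted p = 0.182). Of the 9 that did not pass the filter, *Dux*, the transcription factor that starts the programme, had 15 and 10 reads in Rep1, 0 and 2 in Rep2 and 4 to 15 in *Hdac3*+/+. The summed level of the list was 24.8 to 33.0 CPM in *Hdac3*+/+, 22.1 and 17.1 CPM in Rep1 and 1.66 and 1.97 CPM in Rep2. In bulk RNA, fewer cells in this state and less RNA per cell cannot be told apart, and near-identical copies within both families may share reads. The *Zscan4b* call held without any 1 sample. Without 1 clone sample 2 to 3 members passed, *Zscan4c* was lost without either 0 hr sample (adjusted p up to 0.255), and *Usp17le* and *Usp17lc* were lost without any 1 of the 4 (up to 0.231 and 0.157).

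*Tmem92*, a transmembrane protein gene on chromosome 11, was also near 0 in Rep2 alone, with 64 and 54 reads in Rep1, 1 and 3 in Rep2 and 20 to 36 in *Hdac3*+/+. It was the only gene tested with at most 3 reads in each sample of one clone and at least 30 in each of the other. Its log2 fold change was 4.45 ± 0.47 SE (edgeR, adjusted p = 3.90e-05), and the call held without any 1 sample. Several other genes were lower in Rep2 than in both Rep1 and the parental line. *Thsd4*, of the extracellular matrix, had 12.4 and 14.7 CPM in Rep1, 3.14 and 2.90 CPM in Rep2 and 14.6 to 22.9 CPM in *Hdac3*+/+ (log2 fold change 2.15 ± 0.22 SE). *Mfhas1* and the AMP deaminase gene *Ampd3* were higher in Rep1 by 1.96 and 1.89. In other genes it was Rep1 that lay above the parental line. *Cuedc1* had 9.31 and 8.07 CPM in Rep1 against 2.55 and 2.30 CPM in Rep2 and 1.29 to 2.69 CPM in *Hdac3*+/+ (log2 fold change 1.84 ± 0.26 SE), and *Car6*, a secreted carbonic anhydrase, 5.93 and 6.23 CPM against 1.19 and 1.5 CPM and 1.01 to 2.42 CPM (2.18 ± 0.32 SE). The serine protease gene *Tmprss5* and the actin regulator *Rflnb* were higher in Rep1 by 2.38 and 2.09. These 7 calls held without any 1 sample. The lectin gene *Siglec1* (2.07) lost its call without any 1 clone sample (adjusted p up to 0.136), and *Rgs9bp* (1.90), which anchors a G protein regulator, lost it without either 24 hr sample, where its log2 fold change was 0.80 (up to 0.513), while without either 0 hr sample it was 3.47 to 3.48.

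Imprinted genes are normally read from the copy of one parent. Of 37 that passed the filter, 7 were higher in Rep1 (18.9%, against 11% of all genes), 3 were higher in Rep2 (8.11%, against 6.54%) and 27 did not pass the test, with a median of 0.07. *H19*, a non-coding RNA, had 14.4 and 16.1 CPM in Rep1, 5.01 and 2.80 CPM in Rep2 and 14.9 to 21.3 CPM in *Hdac3*+/+. Rep2 was the low clone, with a log2 fold change of 1.94 ± 0.23 SE (edgeR, adjusted p = 9.53e-05). *Dlk1*, a Notch ligand homologue, had 51.4 and 42.7 CPM in Rep1, 13.8 and 13.4 CPM in Rep2 and 8.74 to 9.67 CPM in *Hdac3*+/+. Rep1 was the high clone here, with a log2 fold change of 1.79 ± 0.12 SE (adjusted p = 7.66e-07), and the *H19* and *Dlk1* calls held without any 1 sample. The neighbouring imprinted genes *Peg10* and *Sgce* were higher in Rep1 by 1.00 and 1.21, and *Phlda2*, of placental growth control, by 1.09, while *Igf2*, *H13* and *Mest* were higher in Rep2 with −0.76, −0.39 and −0.36. The *Peg10* call held without any 1 sample. *Igf2*, *H13* and *Mest* were lost without any 1 clone sample (adjusted p up to 0.512, 0.387 and 0.311). *Sgce* was lost without either 0 hr sample (adjusted p up to 0.111) and *Phlda2* without any 1 clone sample (up to 0.472). The *Igf2* value was −0.50 without either 24 hr sample, and that of *Phlda2* was 0.71 without either 24 hr sample and 1.72 without either 0 hr sample. The count of the list without 1 clone sample was 4 to 5.

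**Figure D5:**
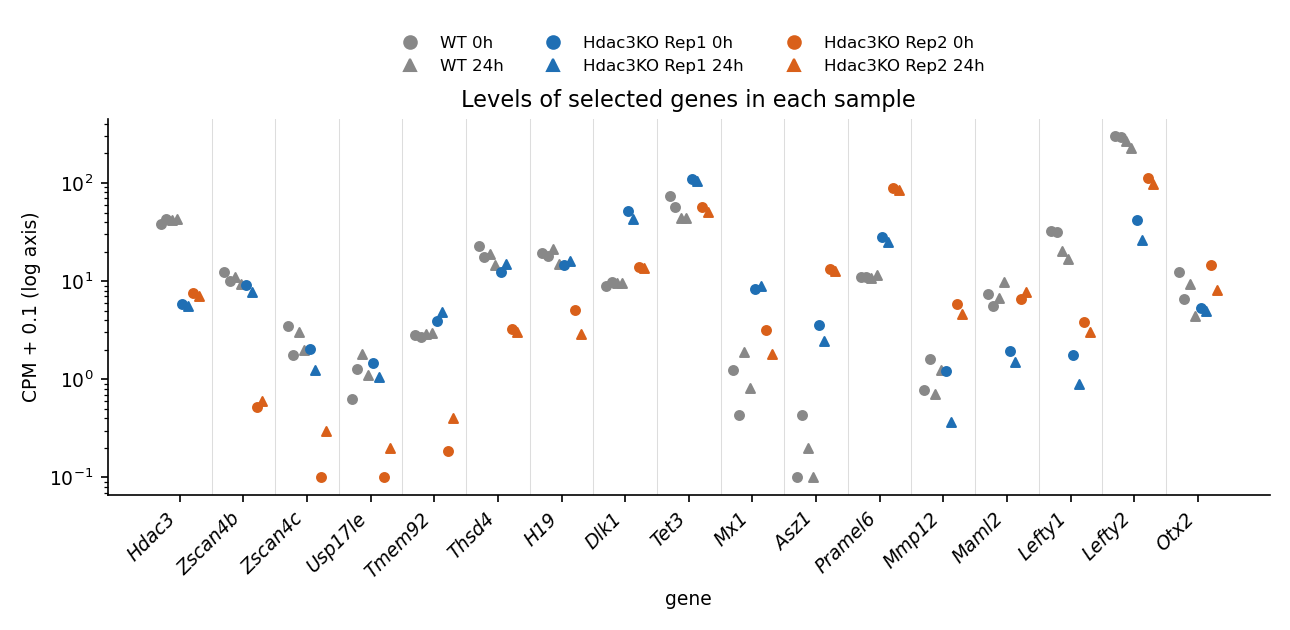
Expression (CPM + 0.1, log axis) of 17 genes named in the text in each of the 8 samples, with *Hdac3*+/+ in grey, the Rep1 clone in blue and the Rep2 clone in orange, circles for 0 hr and triangles for 24 hr. *Hdac3* is low in both clones, the *Zscan4* genes and *Tmem92* are near 0 in Rep2, and *Lefty1* and *Lefty2* are lowest in Rep1.

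Genes higher in Rep2 included germ cell genes. *Asz1*, of the piRNA pathway of germ cells, had 3.50 and 2.37 CPM in Rep1, 13.1 and 12.5 CPM in Rep2 and at most 0.34 CPM in *Hdac3*+/+. Both clones were above the parental line and Rep2 was higher, with a log2 fold change of −2.11 ± 0.29 SE (edgeR, adjusted p = 0.000272). *Pramel6*, of a family of proteins expressed in the early embryo and gonads, followed the same order, with 28.1 and 24.8 CPM in Rep1, 89.3 and 85.3 CPM in Rep2 and 10.8 to 11.3 CPM in *Hdac3*+/+ (−1.72 ± 0.09 SE, adjusted p = 1.79e-07). The tubulin gene *Tuba3b*, expressed in testis, was higher in Rep2 with −1.13. The list of germ cell genes had 2 of 20 members higher in Rep1, near the 11% of all genes, and 5 higher in Rep2, against 6.54% of all genes, with a median of −0.04, and 2 to 3 passed without 1 clone sample. The 10 meiosis genes that the study chose on these samples had 1 in each direction, *Clgn* at 0.70 and *Sycp1* at −0.52, and 8 that did not pass. That list was chosen on these samples and is not independent evidence of a direction. On the X chromosome, *Nxf3*, a testis RNA export factor, had 3.62 and 2.37 CPM in Rep1 and 12.73 and 9.496 CPM in Rep2 (−1.89 ± 0.24 SE). *Pramel3* and *Magea8* were higher in Rep2 with −1.93 and −1.89, as were *Pet2* and *Hsf3* with −2.71 and −2.28. *Asz1*, *Pramel6*, *Tuba3b* and *Nxf3* kept their calls without any 1 sample. Those of *Pramel3*, *Magea8*, *Pet2* and *Hsf3* were lost without either 0 hr sample (adjusted p up to 0.124, 0.0799, 0.201 and 0.368), where *Pet2* was at −1.57 and *Hsf3* at −1.42, *Clgn* without any 1 clone sample (up to 0.434) and *Sycp1* without any but Rep1 at 24 hr (up to 0.306).

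*Lefty2*, a secreted inhibitor of Nodal, had 41.6 and 26.4 CPM in Rep1, 112.8 and 97.7 CPM in Rep2 and 225.1 to 299.8 CPM in *Hdac3*+/+. Both clones lay below the parental line and Rep1 was lower, with a log2 fold change of −1.64 ± 0.11 SE (edgeR, adjusted p = 5.67e-07). *Lefty1*, its paralogue, had 1.66 and 0.79 CPM in Rep1, 3.74 and 2.90 CPM in Rep2 and 16.8 to 32.3 CPM in *Hdac3*+/+ (−1.40 ± 0.28 SE). *Tdgf1*, the Nodal co-receptor, was likewise lowest in Rep1, with 47.7 and 52.7 CPM against 87.1 and 90.4 CPM in Rep2 and 169.1 to 233.4 CPM in *Hdac3*+/+ (−0.82 ± 0.11 SE). *Otx2*, a transcription factor of the primed epiblast, had 5.22 and 4.82 CPM in Rep1 and 14.6 and 8.10 CPM in Rep2, but the *Hdac3*+/+ replicates also differed in it, with 12.2 and 9.27 CPM in Rep1 and 6.47 and 4.31 CPM in Rep2. The log2 fold change between the clones was −1.17. *Nodal* itself was higher in Rep2 with −0.33. Of the primed and early lineage list, 1 of 19 members was higher in Rep1 (*Sox11*, 0.56) and 5 were higher in Rep2, against 11% and 6.54% of all genes, with a median of −0.31, and 1 to 3 passed without 1 clone sample. Outside this group, *Maml2*, a Notch coactivator, had 1.84 and 1.40 CPM in Rep1, 6.54 and 7.60 CPM in Rep2 and 5.46 to 9.76 CPM in *Hdac3*+/+ (−2.08 ± 0.29 SE). *Hoxc12*, a homeobox gene, was likewise higher in Rep2 with −1.96. *Mmp12*, a matrix metalloproteinase, and *Clvs1*, a lipid-binding protein, were higher in Rep2 with −2.83 and −2.94. The calls of *Lefty2*, *Tdgf1*, *Maml2*, *Hoxc12* and *Mmp12* held without any 1 sample. *Lefty1* was lost without either 24 hr sample (adjusted p up to 0.0971), *Clvs1* without either 0 hr sample (up to 0.0799), and *Otx2*, *Sox11* and *Nodal* without any 1 clone sample (up to 0.463, 0.336 and 0.293), with *Otx2* at −0.75 without either 0 hr sample.

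The counts of the remaining lists stand against 11% of all genes higher in Rep1 and 6.54% higher in Rep2. Naive pluripotency genes had 6 of 21 members higher in Rep1 and 4 higher in Rep2, with a median of −0.02. Primitive endoderm genes had 4 of 12 higher in Rep1, among them the basement membrane genes *Col4a1* at 0.69 and *Lama1* at 0.32, and 1 higher in Rep2, the endocytic adaptor *Dab2* at −0.82, with a median of 0.24. The summed level of this list was 1269 to 1361 CPM in *Hdac3*+/+, 1042 and 1139 CPM in Rep1 and 959.4 and 996.3 CPM in Rep2. Trophectoderm genes had 3 of 9 higher in Rep1, the keratins *Krt8* at 0.98 and *Krt18* at 1.10 and the transcription factor *Ascl2* at 0.81, and 0 higher in Rep2. Their summed level did not follow, with 176.2 and 159.0 CPM in Rep1, 183.8 and 164.7 CPM in Rep2 and 138.0 to 167.9 CPM in *Hdac3*+/+. DNA methylation genes had *Tet3* higher in Rep1 and *Dnmt3l* and *Uhrf1* higher in Rep2 (−0.58 and −0.19), and of the HDAC3 corepressor complex and other HDACs, 1 of 16 was higher in Rep1 and 2 in Rep2, among them *Hdac1* with −0.37. Interferon-induced genes had 2 of 15 higher in Rep1 and 1 in Rep2, both near those shares, p53 targets 5 of 21 and 1, Wnt targets 4 of 9 and 2, and FGF-ERK targets 1 of 17 and 2, with medians of 0.18, 0.12, −0.05 and 0.17. X inactivation regulators had 2 of 17 higher in each clone and a median of 0.01. Without 1 clone sample, 2 to 3 naive, 0 trophectoderm, 1 DNA methylation, 1 interferon-induced and 0 X inactivation members passed, and 0 to 1 of the primitive endoderm, corepressor, p53, Wnt and FGF-ERK lists. The calls of *Col4a1*, *Lama1*, *Krt8*, *Krt18*, *Ascl2*, *Dnmt3l* and *Uhrf1* were lost without any 1 of the 4 (adjusted p up to 0.241, 0.306, 0.327, 0.271, 0.292, 0.190 and 0.485), and those of *Dab2* and *Hdac1* without either 24 hr sample (up to 0.149 and 0.116).

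On the X chromosome, 119 of 561 genes differed between the clones (21.2%, against 17.6% over all genes), 68 higher in Rep1 and 51 in Rep2. The median log2 fold change was 0.02. The B6 share was lower after DOX in both clones, by less than in the parental line. Over 304 genes the median d-score was 0.504 at 0 hr and 0.404 at 24 hr in Rep1, and 0.483 and 0.395 in Rep2, while it fell from 0.497 to 0.286 and from 0.502 to 0.278 in the *Hdac3*+/+ replicates. The d-score was lower at 24 hr in 258 of the 304 genes in Rep1 and in 257 in Rep2. In the study's chromatin data, the input of a mutant sample had an unequal allelic signal on the X chromosome. The authors put this down to some XO cells, which lack an X copy, and adjusted the chromatin d-scores of that sample. The methods do not say which clone it was. The RNA d-scores given here carry no such adjustment, and the part of XO cells in them was not tested. The allelic test called 5 of 345 X-linked genes (1.45%), near the 1.09% of genes off chromosome 16 and below the 2.84% of all genes tested. They were *Tbc1d25*, *Efhc2*, *Nr0b1*, *Ubqln2* and *Ap1s2*, all named after their values were seen and all with a higher B6 share in Rep1. *Xist*, the RNA that coats the silenced copy, had 17.4 CPM at 0 hr and 2045 CPM at 24 hr in Rep1, against 16.9 and 1556 CPM in Rep2 and 1706 and 1731 CPM at 24 hr in *Hdac3*+/+. Its log2 fold change of 0.29 ± 0.10 SE passed narrowly (edgeR, adjusted p = 0.0486) and was lost without any 1 clone sample. It was 0.04 without either 24 hr sample (adjusted p up to 0.941) and 0.39 without either 0 hr sample (up to 0.0969). *Dusp9*, an X-linked phosphatase that dampens ERK signalling, was named after its values were seen. It had 414.3 and 360.3 CPM in Rep1, 142.3 and 116.9 CPM in Rep2 and 139.8 to 267.9 CPM in *Hdac3*+/+, so that Rep1 lay above the parental range, Rep2 at 0 hr near its lower end and Rep2 at 24 hr below it (log2 fold change 1.58 ± 0.11 SE, adjusted p = 1.24e-06), and its call held without any 1 sample. Without 1 clone sample, 24 to 26 X-linked genes passed, 26 without either 24 hr sample and 24 without either 0 hr sample.

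The response to 24 hr of DOX was also set between the clones. No gene passed in edgeR's test of the difference (0% of 13350), 150 genes had an unadjusted p under 0.05 (1.12%), and with DESeq2 size factors the counts were 0 and 147. With no differences at all, a share of 0.05 would be expected under that cut. The share found was lower, so the test was conservative here. The 0 calls therefore do not show that the clones responded alike. Each clone has 1 sample per time, so this test took its spread from the *Hdac3*+/+ duplicates. In simulated data of 13350 genes it recovered 28 of 100 genes whose response differed by 1 on the log2 scale and 92 of 100 that differed by 2. Those data had the same spread for every gene and changed only genes above a minimum of reads, so recovery in the real data was not measured. The replicate number is shared by the 2 genotypes, and clone and replicate number cannot be told apart within *Hdac3*-/-.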

How the data were processed

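RNA-seq of 8 samples was analysed, 4 of them from the *Hdac3*-/- clones, in groups taken from the labels. According to the study's methods, the authors removed rRNA reads, mapped the rest to mm10 with TopHat2 2.1.0, and used featureCounts 1.5.1 to obtain the deposited count of reads per gene, in total and for each allele, without normalization. The d-score is the fraction B6/(B6 + Cast) that the authors deposited for genes with at least 10 allelic reads. No separate cultures are named beyond the clones, so p-values measure the spread between these samples.

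For total counts, a quasi-likelihood fit of edgeR (version 4.0.16 under R 4.3.3, TMM) took in all 8 samples, with terms for *Hdac3*+/+ at each time, each clone and DOX within *Hdac3*-/-. Genes needed a TPM above 1 in 2 clone samples, and calls an adjusted p (Benjamini-Hochberg) under 0.05. Fold changes are Rep1 over Rep2. CPM was computed on TMM-scaled library sizes, and allelic CPM with a pseudocount of 0.1. The allelic test used B6 and Cast counts as 2 columns per sample. Segments are runs of at least 5 windows of 9 genes with an absolute median log2 ratio difference above 0.4. Positions come from GENCODE M21 and RefSeq on GRCm38 (mm10), and 80 of 24542 symbols had none. In simulated data the clone test recovered 97 of 100 genes changed by 1 on the log2 scale and 100 of 100 changed by 2, with 6 false calls among 13350 genes. At a change of 1 the other tests recovered fewer, 70 of 100 beyond the *Hdac3*+/+ replicates and 28 of 100 for the DOX response (13350 genes each), and 44 of 100 for the allelic ratio (10227 genes). The simulation gave every gene the same spread, changed only genes above a minimum of reads and held no difference between replicates. Its counts therefore do not measure the error rate or power in the real data, where the *Hdac3*+/+ duplicates alone differed in 887 genes. limma 3.58.1 and DESeq2 1.42.0 served alternatives, and Python 3.11.15, pandas 2.3.3 and matplotlib 3.10.9 tables and figures.

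The rule for named genes took, off chromosome 16, the 12 largest changes in each direction among called genes with the same sign at both times and at least 2 CPM, on chromosome 16 the 10 highest genes and up to 5 called against the median, up to 4 called members per list, and *Hdac3* and *Xist*. Other named genes, such as *Dux*, *Peg10*, *Igf2*, *H13*, *Mest*, *Nodal*, *Usp17la* and segment genes, were chosen after their values were seen. The samples and gene lists were chosen with earlier results of these data known.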

Additional observations from a re-analysis of the deposited data

Results flagged for a closer look

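Both genotypes carry replicate numbers 1 and 2, and the Rep1 minus Rep2 difference in *Hdac3*-/- was tested against that in *Hdac3*+/+ with edgeR's quasi-likelihood test. The difference between the genotypes passed an adjusted p of 0.05 in 1604 genes, of which 232 lie on chromosome 16. On that chromosome 226 were more positive in *Hdac3*-/- and 6 more negative. Among the named genes, 5 had an adjusted p under 0.001 and an absolute log2 difference above 2. *Tmem92* differed by 4.42 and *Zscan4b* by 3.87, with *Hdac3*+/+ replicates that differed by 0.03 and 0.28. *Cuedc1* differed by 2.16 and *Maml2* by −2.04. *Otx2* differed by −2.18, and here the *Hdac3*+/+ replicates themselves differed by 0.98 (adjusted p = 0.000534) in the direction opposite to the clones.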

How the results depend on the processing

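No alternative that was run reversed the sign of a named gene that was called, or the larger side of the counts over all genes or over chromosome 16. The balance of some gene lists did change (members higher in Rep1 and in Rep2). FGF-ERK targets went from 1 and 2 to 6 and 4 with the clone samples alone or the block, Wnt targets from 4 and 2 to 1 and 2 in DESeq2, and X inactivation regulators from 2 and 2 to 4 and 6 with the clone samples alone. Without either 0 hr clone sample, primitive endoderm genes (4 and 1), p53 targets (5 and 1) and Wnt targets each had 0 and 1, and DNA methylation genes went from 1 and 2 to 1 and 0 without any 1 clone sample. Of 2343 genes called, DESeq2's Wald test gave 1117, the 4 clone samples alone 4438 and a replicate block within *Hdac3*+/+ 4338. Off chromosome 16, where the count was 2088, these gave 936, 4119 and 4021, and for 119 X-linked genes 49, 206 and 197. Leaving out 1 sample gave 359 to 3262 genes in all, 86 to 290 on chromosome 16, 273 to 2973 off it, 24 to 157 on the X and 133 to 293 in the allelic test. The lone sample is then assumed to vary like *Hdac3*+/+. The median on chromosome 16 was 0.4272 to 0.4563 and on the X 0.01684 to 0.022. The X median was 0.02934 with TMM without chromosome 16, 0.01718 without a filter, 0.02554 with filterByExpr and 0.02375 with voom. The DOX test called 1 gene without a filter. The allelic test called 290 genes, and 75 without chromosome 16 and the segments, a setting chosen after seeing the data. Of 89 named genes called, 62 kept the call in DESeq2 and 35 to 37 without 1 clone sample. Where a call changed, the cause was not tested beyond the fewer samples of a leave-out.

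The replicate numbers pair no samples by the labels. Across 10302 genes, which are not independent, the Rep1 minus Rep2 difference of *Hdac3*+/+ had a Pearson r of 0.277 to 0.314 with that of *Hdac3*-/-, against 0.794 between the clones' 2 times and 0.445 between those of *Hdac3*+/+. Depth limits the genes with few Rep2 reads, among them 1 read in all for *Usp17lc* and *Usp17le* and 4 for *Tmem92*.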

Other observations

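Among X-linked genes not named by the rule, *Scml2*, a germline Polycomb protein, and *Usp26*, a testis deubiquitinase, were higher in the Rep2 clone, with log2 fold changes of −1.36 ± 0.07 SE and −0.98 ± 0.08 SE (edgeR, adjusted p = 1.79e-07 and 3.51e-06). Both were above *Hdac3*+/+ in each clone, by 3.07 (Rep1) and 4.43 (Rep2) for *Scml2* and by 2.14 and 3.12 for *Usp26*. They were chosen after their values were seen.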
